A study of Mus musculus with 4 samples.

Results

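The KDM4 enzymes are histone H3 demethylases. KDM4A, KDM4B and KDM4C remove methyl groups from lysines 9 and 36, and KDM4D acts on lysine 9. The study concerned KDM4A, KDM4B and KDM4C in cells with the H3.3 G34R mutation. H3K9me3 and H3K36me3 were examined here on the genes Kdm4a, Kdm4b, Kdm4c and Kdm4d. Every enriched region lying inside these genes or within 5 kb of them was taken from the deposited lists. This gave 38 of 64095 regions, 36 from the H3K36me3 list and 2 from the H3K9me3 list. Of the H3K36me3 regions 34 touched a Kdm4 gene and 2 lay only in the flanking sequence, and both H3K9me3 regions lay inside a gene.

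The regions came from chromatin immunoprecipitation followed by sequencing (ChIP-seq) of mouse embryonic stem (ES) cells of strain 129S1/SvImJ, at a passage below 20. The cells were WT or Targeted H3.3 G34R ES cells, and in the latter 1 copy of H3f3a expresses a glycine to arginine substitution from the endogenous promoter, while the other H3f3a copy and H3f3b are WT. Mutant cells were clones selected after Cre excision of a WT minigene, and the labels do not name the clone. There was 1 library for each combination of cells (WT, G34R) and mark (H3K9me3, H3K36me3). The authors deposited 1 list of positions per mark, with 31593 regions for H3K36me3 and 32502 for H3K9me3, and a region entered a list when it was enriched in WT or in G34R cells. The authors kept only bins overlapping annotated genes, and all regions of both lists (100%) touched an annotated gene, so intergenic sequence could not be listed. The lists give no read values, so the depth is unknown. A difference between WT and G34R cells at these genes was not analysed here, and without replicates no value below has an error.

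H3K36me3 is placed on the bodies of transcribed genes behind the elongating polymerase, by SETD2, and builds up towards the 3′ end. H3K9me3 is best known from heterochromatin and silenced repeats. KDM4A, KDM4B and KDM4C are large nuclear proteins that carry a catalytic jumonji domain towards the N-terminus, followed by PHD and Tudor domains that bind modified histones. KDM4D is a short relative that has the catalytic part without the PHD and Tudor domains, and is known mainly from testis. KDM4B and KDM4C have been linked to self-renewal of ES cells.

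The 4 genes differed greatly in H3K36me3. Regions covered 75.2% of Kdm4a, 48.8% of Kdm4b, 2.94% of Kdm4c and 0% of Kdm4d. H3K9me3 was found in Kdm4b alone among the 4, over 1.56% of the gene, and only there did both lists share sequence, over 600 bp. As each list holds regions enriched in WT or in G34R cells, sequence in both lists need not carry both marks in the same cells. H3K36me3 was thus found in 3 of 4 genes, where the background was 34% of 22367 protein-coding genes, and 38.4% of the 6151 genes at least as long as Kdm4d, the shortest of the 4. H3K9me3 was found in 1 of 4, with backgrounds of 40.2% and 69%. Both lists touched 1 of 4 genes, with backgrounds of 12.1% and 22.6%, and shared bases were found in 1 of 4, with backgrounds of 7.14% and 13.3%. With regions of at least 1 kb only, H3K36me3 was left in 2 of 4 genes, since Kdm4c fell to 0 bp, and H3K9me3 and shared bases in 0 of 4, since Kdm4b fell to 0 bp of each. At this width the backgrounds for all and for long genes were 28.4% and 30% for H3K36me3, 24.6% and 47.7% for H3K9me3, and 3.6% and 7.02% for shared bases. With 4 genes, these counts describe the family and were not tested.

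**Figure D1:**
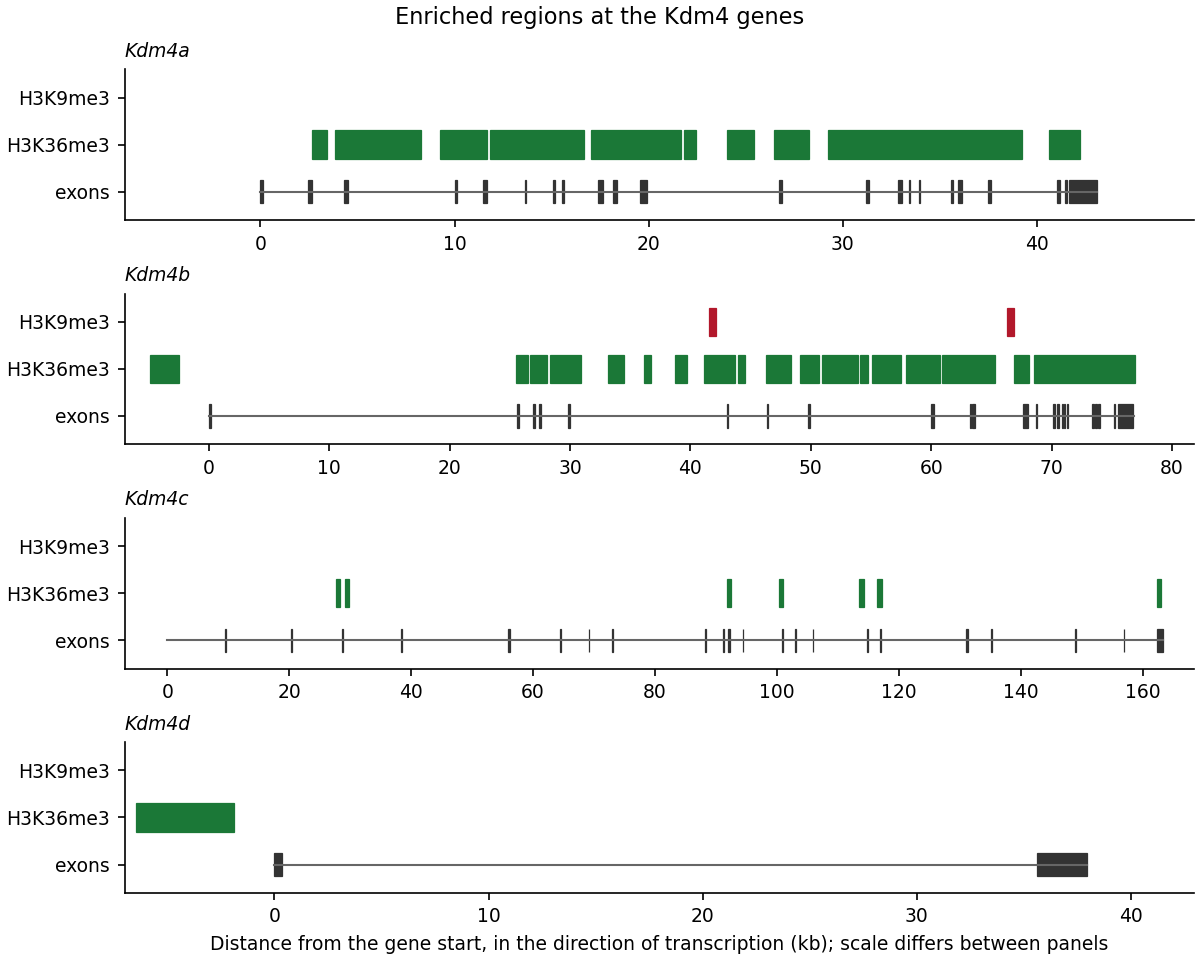
Regions of the H3K36me3 list (green) and the H3K9me3 list (red) at each Kdm4 gene, with the exons of the reference transcript in grey, against the distance from the gene start in kb along the direction of transcription. H3K36me3 begins at 2648 bp in Kdm4a and at 25516 bp in Kdm4b, with gaps of up to 1600 and 2200 bp, Kdm4c holds 7 regions of 600 to 800 bp, and Kdm4d holds none.

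The part of these genes that encodes the catalytic domain allows a direct comparison, since it is built alike in 3 of them. Coordinates here and below are 1-based on mm9, and exons are numbered in the transcript with the longest coding sequence. Exons 3 to 8 have the same lengths in Kdm4a, Kdm4b and Kdm4c, 777 coding bases in total. Kdm4d has its whole coding sequence of 1533 bases in exon 2, and a stretch without gaps from coding base 142 matched these exons. Over the 777 bases Kdm4a was identical to Kdm4b at 76.1% of positions, to Kdm4c at 75.4% and to Kdm4d at 70.4%, and 445 positions (57.3%) were the same in all 4. H3K36me3 regions covered 766 of these bases in Kdm4a and 777 in Kdm4b, but 0 in Kdm4c and 0 in Kdm4d. Coverage by listed regions thus differed between genes of similar catalytic sequence.

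Exon 5 and exon 6 are shown as examples of this stretch. They are read in the direction of transcription from the mm9 assembly, and capitals mark positions that are the same in all 4 genes. Exon 5 lies at chr4:117840990-117841183 on the minus strand in Kdm4a, at chr17:56495286-56495479 on the plus strand in Kdm4b and at chr4:73944345-73944538 on the plus strand in Kdm4c, and its match in Kdm4d lies at chr9:14268379-14268572 on the minus strand. H3K36me3 covered 183 of its 194 bases in Kdm4a, 194 in Kdm4b, 0 in Kdm4c and 0 in Kdm4d.
Kdm4a exon 5: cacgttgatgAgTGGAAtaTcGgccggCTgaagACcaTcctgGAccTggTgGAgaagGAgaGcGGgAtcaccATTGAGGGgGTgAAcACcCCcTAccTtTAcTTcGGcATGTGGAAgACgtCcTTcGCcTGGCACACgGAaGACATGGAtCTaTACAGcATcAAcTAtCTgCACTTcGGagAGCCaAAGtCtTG
Kdm4b exon 5: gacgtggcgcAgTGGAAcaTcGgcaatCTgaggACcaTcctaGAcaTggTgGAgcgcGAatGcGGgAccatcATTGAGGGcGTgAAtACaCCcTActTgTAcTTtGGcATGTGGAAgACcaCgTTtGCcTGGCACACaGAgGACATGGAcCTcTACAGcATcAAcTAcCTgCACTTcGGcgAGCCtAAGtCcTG
Kdm4c exon 5: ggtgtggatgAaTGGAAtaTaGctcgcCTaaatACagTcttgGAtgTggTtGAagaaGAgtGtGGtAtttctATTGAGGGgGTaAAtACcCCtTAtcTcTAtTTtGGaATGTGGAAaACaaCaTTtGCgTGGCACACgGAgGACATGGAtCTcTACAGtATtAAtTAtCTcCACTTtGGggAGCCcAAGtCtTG
Kdm4d matching stretch: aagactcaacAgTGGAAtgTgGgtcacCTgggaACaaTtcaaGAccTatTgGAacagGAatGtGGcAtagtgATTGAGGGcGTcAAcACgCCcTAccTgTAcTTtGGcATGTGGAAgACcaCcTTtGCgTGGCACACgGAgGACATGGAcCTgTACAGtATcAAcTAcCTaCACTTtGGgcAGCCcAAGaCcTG

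Exon 6 lies at chr4:117838990-117839039 in Kdm4a, chr17:56508546-56508595 in Kdm4b and chr4:73952869-73952918 in Kdm4c, with its match in Kdm4d at chr9:14268329-14268378, on the strands given above. All 50 bases were covered by H3K36me3 in Kdm4a and in Kdm4b, and 0 in the others. Of the 50 positions 30 were the same in all 4 genes.
Kdm4a exon 6: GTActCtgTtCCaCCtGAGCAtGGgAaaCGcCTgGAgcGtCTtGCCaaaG
Kdm4b exon 6: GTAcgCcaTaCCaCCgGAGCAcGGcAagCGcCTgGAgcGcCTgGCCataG
Kdm4c exon 6: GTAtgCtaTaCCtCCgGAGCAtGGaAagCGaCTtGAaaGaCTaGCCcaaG
Kdm4d matching stretch: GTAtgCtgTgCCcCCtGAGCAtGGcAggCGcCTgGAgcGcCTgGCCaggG

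The read length was 50 bases, so identical stretches of this length between the genes were counted. No pair of the 4 genes shared an identical stretch of 50 bases within coding sequence (0 in all 6 pairs). Across whole genes, introns included, a pair shared at most 123 such stretches, which was the value for Kdm4b and Kdm4c.

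Kdm4a (ENSMUSG00000033326.9, chromosome 4, 117809562 to 117852648, minus strand, 43087 bp) was the most completely marked. KDM4A removes methyl groups from both lysine 9 and lysine 36. The gene held 10 H3K36me3 regions with 32400 bp in total. Of the 7609 protein-coding genes with H3K36me3, 709 had a higher covered share, and 90.7% had a lower one. Among the 2365 of these that were at least as long as Kdm4d, 55 had a higher share than Kdm4a, where the median was 8.02%.

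In the direction of transcription, the first H3K36me3 region of Kdm4a was 800 bp wide (117849201 to 117850000), began 2648 bp from the gene start and reached 1 bp into exon 2. The next lay at 117844401 to 117848800 (4400 bp) and held exon 3. Regions at 117841001 to 117843400 (2400 bp) and 117836001 to 117840800 (4800 bp) held exons 4 and 5 and exons 6 to 8. Exon 5 was cut by a gap of 200 bp between these regions, which left 11 of its coding bases uncovered. The region at 117831001 to 117835600 (4600 bp) held exons 9 to 11.

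The middle of Kdm4a was more broken up. Regions at 117830201 to 117830800 (600 bp) and 117827201 to 117828600 (1400 bp) lay wholly in intron 11, the longest intron at 6823 bp, which was covered over 59.0%. The region at 117824401 to 117826200 (1800 bp) held exon 12. It was followed by the widest region at the 4 genes, 117813401 to 117823400 (10000 bp), which spanned exons 13 to 19. The last, at 117810401 to 117812000 (1600 bp), held exons 20 and 21 and ended inside exon 22, 839 bp before the end of the gene.

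Coding sequence of Kdm4a was covered over 95.4% and introns over 75.3%. Of its 22 exons 18 were wholly covered. Exon 1, which is untranslated, carried 0 bp. Between the first and the last region 9 gaps of 200 to 1600 bp (median 1000 bp) made up 7200 bp, so that 81.8% of this span was covered.

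Kdm4b (ENSMUSG00000024201.6, chromosome 17, 56465485 to 56542293, plus strand, 76809 bp) had the most covered sequence of the 4 genes, 37493 bp in 17 regions. KDM4B acts on the same lysines as KDM4A. Its covered share was exceeded by 2219 of the 7609 marked genes, and by 215 of the 2365 long ones. H3K36me3 began 25516 bp from the gene start, 55 bp before exon 2. It was absent from exon 1 and from the rest of intron 1, which is 25403 bp long and is the longest intron of the gene. From there to the end of the gene 73.1% of the sequence was covered.

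From exon 2 to exon 5 of Kdm4b coverage was nearly continuous, with introns 2, 3 and 4 covered over 83.0%, 100% and 91.0%. The regions lay at 56491001 to 56492000 (1000 bp, exon 2), 56492201 to 56493600 (1400 bp, exons 3 and 4) and 56493801 to 56496400 (2600 bp, exon 5). A further 3 regions followed inside intron 5, at 56498601 to 56500000 (1400 bp), 56501601 to 56502200 (600 bp) and 56504201 to 56505200 (1000 bp). The region at 56506601 to 56509200 (2600 bp) held exon 6, and the one at 56509401 to 56510000 (600 bp) lay in intron 6. Introns 5 and 6 were covered over 44.9% and 38.5%.

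Coverage became denser in the second part of Kdm4b. Regions at 56511801 to 56513800 (2000 bp) and 56514601 to 56516200 (1600 bp) held exons 7 and 8. Intron 8 was covered over 88.1%, by the end of that region, by regions at 56516401 to 56519400 (3000 bp), 56519601 to 56520200 (600 bp) and 56520601 to 56523000 (2400 bp), and by the start of the next. Regions at 56523401 to 56526200 (2800 bp, exon 9), 56526401 to 56530800 (4400 bp, exons 10 and 11) and 56532401 to 56533600 (1200 bp, exon 12) came next. The last region, at 56534001 to 56542400 (8400 bp), spanned exons 13 to 23 and passed the end of the gene.

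All 22 coding exons of Kdm4b were wholly covered, and coding sequence reached 100% against 45.8% of introns. Of the 17 regions 10 held coding sequence and 7 lay wholly in introns. The 16 gaps inside the marked span had a median of 400 bp and included 6 of 200 bp, the width of a single counting bin. The longest gap was 2200 bp.

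**Figure D2:**
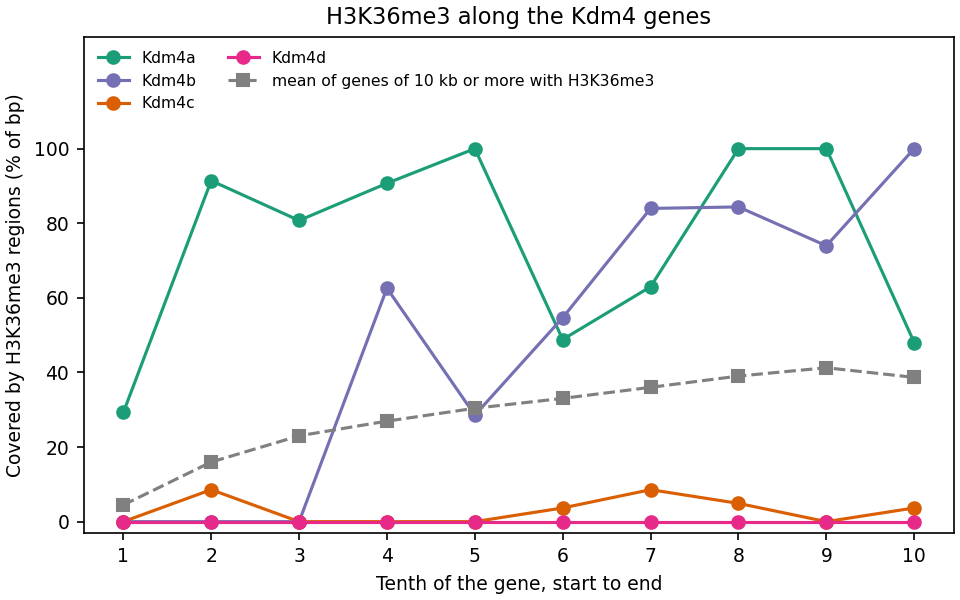
Share of each of 10 equal parts of a gene covered by H3K36me3 regions (% of bp, y axis) from the first part to the last (x axis), for each Kdm4 gene and for the mean of 5777 protein-coding genes of 10 kb or more with H3K36me3. Kdm4a lies above the mean in all 10 parts, Kdm4b starts in part 4 and reaches 100% in the last, and Kdm4c and Kdm4d lie below the mean throughout.

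Each gene was divided into 10 equal parts, numbered from its start, to summarise position. Kdm4a had 29.3% of part 1 and 91.4% of part 2 covered, between 48.8% and 100% in parts 3 to 9, and 48.0% in part 10. Kdm4b had 0% in parts 1 to 3, 62.6% in part 4, 28.6% in part 5 and 100% in part 10. Kdm4c had at most 8.57%, in parts 2 and 7. The mean over 5777 marked genes of 10 kb or more went from 4.48% in part 1 to 41.3% in part 9. In these genes H3K36me3 began at a median of 8263 bp from the start (quartiles 3481 and 20482 bp). The onset in Kdm4a was thus earlier than the lower quartile, while those in Kdm4b and in Kdm4c, at 27600 bp, were later than the upper one. These distances are in bp and were not matched for gene length, and Kdm4b and Kdm4c are 76809 and 163364 bp long. In Kdm4c, exon 1 of the transcript with the longest coding sequence begins 9439 bp after the gene start, so the onset is closer to the start of that transcript.

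Both H3K9me3 regions of Kdm4b were 600 bp wide, the minimum width in either list, and lay wholly in introns. The first (56507001 to 56507600) was in intron 5, 946 bp from exon 6. It lay wholly inside an H3K36me3 region, and its 600 bp were the only bases of the 4 genes in both lists. The second (56531801 to 56532400) was in intron 11, 741 bp from exon 12. It shared 0 bp with H3K36me3, lay 1000 bp behind the H3K36me3 region before it, and ended at the base before the next one began. The central 300 bases of both regions are shown to give the sequence that carried H3K9me3, from mm9 on the plus strand, at chr17:56507151-56507450 for the first and chr17:56531951-56532250 for the second. Capitals mark the dinucleotide CG.
Kdm4b intron 5, in both lists: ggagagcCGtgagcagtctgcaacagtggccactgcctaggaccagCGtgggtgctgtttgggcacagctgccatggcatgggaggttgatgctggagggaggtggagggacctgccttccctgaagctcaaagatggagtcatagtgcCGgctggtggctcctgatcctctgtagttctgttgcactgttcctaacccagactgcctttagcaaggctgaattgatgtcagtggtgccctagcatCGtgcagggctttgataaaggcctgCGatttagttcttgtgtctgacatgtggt
Kdm4b intron 11, in the H3K9me3 list: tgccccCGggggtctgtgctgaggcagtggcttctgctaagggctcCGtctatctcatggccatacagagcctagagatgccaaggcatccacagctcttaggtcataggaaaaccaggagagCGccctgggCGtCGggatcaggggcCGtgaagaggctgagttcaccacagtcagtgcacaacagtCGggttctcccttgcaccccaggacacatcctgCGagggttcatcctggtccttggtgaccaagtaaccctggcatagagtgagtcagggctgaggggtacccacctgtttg

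The dinucleotide CG, which reads the same on both strands, occurred 5 times in the first window and 8 times in the second. When Kdm4b was divided into 256 windows of 300 bases, 91.0% held at least 1 CG, 23.4% held at least 5 and 7.81% held at least 8. The windows had a G+C content of 55.7% and 59.0%, against 53.7% for the gene. None of the stretches of 50 bases starting in either region had more than 1 copy in the assembly (0%). Of 8986 protein-coding genes with H3K9me3 7617 had a higher covered share than Kdm4b, and the median was 5.84%. Of the 4247 long ones 2901 had a higher share, and the median was 2.71%.

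Kdm4c (ENSMUSG00000028397.7, chromosome 4, 73888401 to 74051764, plus strand, 163364 bp) is the longest of the 4 genes. KDM4C, also known as GASC1, has the same domains as KDM4A and KDM4B. It held 7 H3K36me3 regions of 600 to 800 bp with 4800 bp in total, and 6747 of the 7609 marked genes had a higher covered share, as had 1648 of the 2365 long ones. By covered sequence rather than share, 3565 of the 7609 genes had more. H3K9me3 was not listed in the gene or within 5 kb, and the nearest H3K9me3 region lay 227401 bp away at Frmd3. This distance and those given for Kdm4a and Kdm4d run from the edge of the gene to the nearest listed region. As only regions in genes were listed, these distances say nothing of the sequence between genes.

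Gaps between the regions of Kdm4c ranged from 800 to 62000 bp (median 10200 bp). Those at 73916001 to 73916800 (800 bp) and 73917601 to 73918200 (600 bp) lay in introns 2 and 3, on either side of exon 3, and left this exon uncovered. After a gap of 62000 bp, the region at 73980201 to 73980800 (600 bp) held all 320 coding bases of exon 11. In it, 8.5% of stretches of 50 bases had more than 5 copies in the assembly. The region at 73988801 to 73989400 (600 bp) held 127 bases of exon 13.

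Further along Kdm4c, a region at 74001801 to 74002600 (800 bp) lay in intron 15 and one at 74004801 to 74005600 (800 bp) held exon 17 with 109 coding bases. After another gap of 45200 bp, the region at 74050801 to 74051400 (600 bp) lay in exon 22 and held 101 coding bases and 499 bases of the 3′ untranslated region. Coding sequence was thus touched by 4 of 7 regions. H3K36me3 regions covered 20.8% of the coding sequence (657 of 3165 bases) and 2.43% of introns. The order of coding sequence over introns seen in Kdm4a and Kdm4b was thus present in Kdm4c, at much lower covered shares. In Kdm4c it rests on regions that were all lost at a minimum width of 1 kb. In Kdm4b the share of introns includes intron 1, with 55 of 25403 bp covered. The order is not particular to the Kdm4 genes. Every further histone lysine demethylase gene with H3K36me3, described below, had it too, for example Kdm5b with 90.2% and 50.3%.

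**Figure D3:**
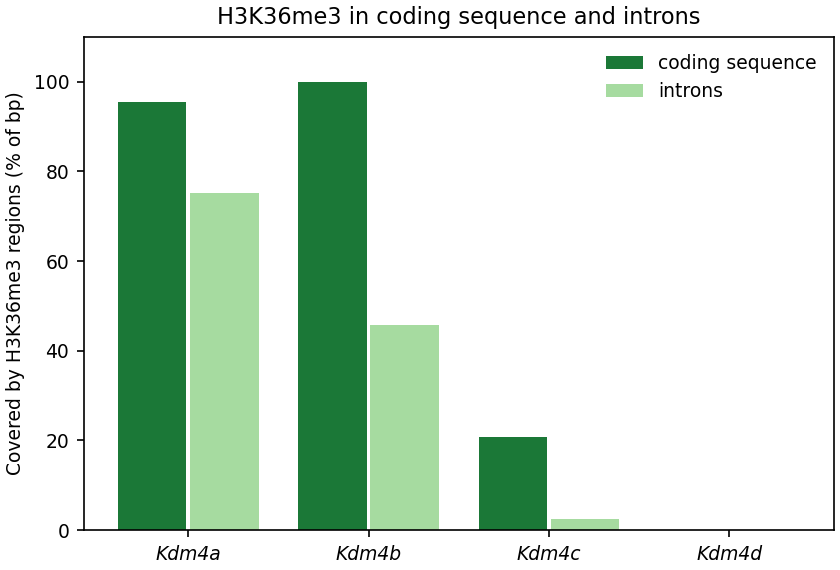
Share of the coding sequence and of the introns of the reference transcript covered by H3K36me3 regions (% of bp) for each Kdm4 gene. The bars for coding sequence are higher than those for introns in Kdm4a (95.4% and 75.3%), Kdm4b (100% and 45.8%) and Kdm4c (20.8% and 2.43%), and both are 0% in Kdm4d.

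Kdm4d (ENSMUSG00000053914.9, chromosome 9, 14266992 to 14304926, minus strand, 37935 bp) held no region of either list. Its gene consists of 2 exons and an intron of 35240 bp. The only region within 5 kb was an H3K36me3 region of 4600 bp (14306801 to 14311400), 1875 bp upstream of the gene start, and it lay in Cwc15. The nearest H3K9me3 region was 76475 bp away at Amotl1. Absence from both lists does not measure the level of a mark. Besides a threshold, the authors removed regions by size and by extreme read counts, and neither list holds a region under 600 bp.

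The neighbours of Kdm4d and Kdm4b differed from them in covered share. Cwc15, which encodes a splicing factor, starts 135 bp from the start of Kdm4d on the opposite strand. H3K36me3 covered 74.3% of Cwc15 (7400 bp) and 0% of Kdm4d. Uhrf1, which encodes a reader of H3K9me3 and of hemimethylated DNA needed for maintenance of DNA methylation, ends 2576 bp before Kdm4b on the same strand. It was covered over 90.8% (18309 bp), and its last H3K36me3 region (56460601 to 56463000) was the other region found only in a flank. It ends in the bin that holds the end of Uhrf1, beyond which the restriction to genes allowed no listing, and whether enrichment went on was not tested. The 25516 bp from the start of Kdm4b held no listed region. St3gal3, a sialyltransferase gene 2043 bp beyond the end of Kdm4a, was covered over 3.75% by H3K36me3. It held 1200 bp of H3K9me3, including the H3K9me3 region nearest to Kdm4a at a distance of 60162 bp.

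**Figure D4:**
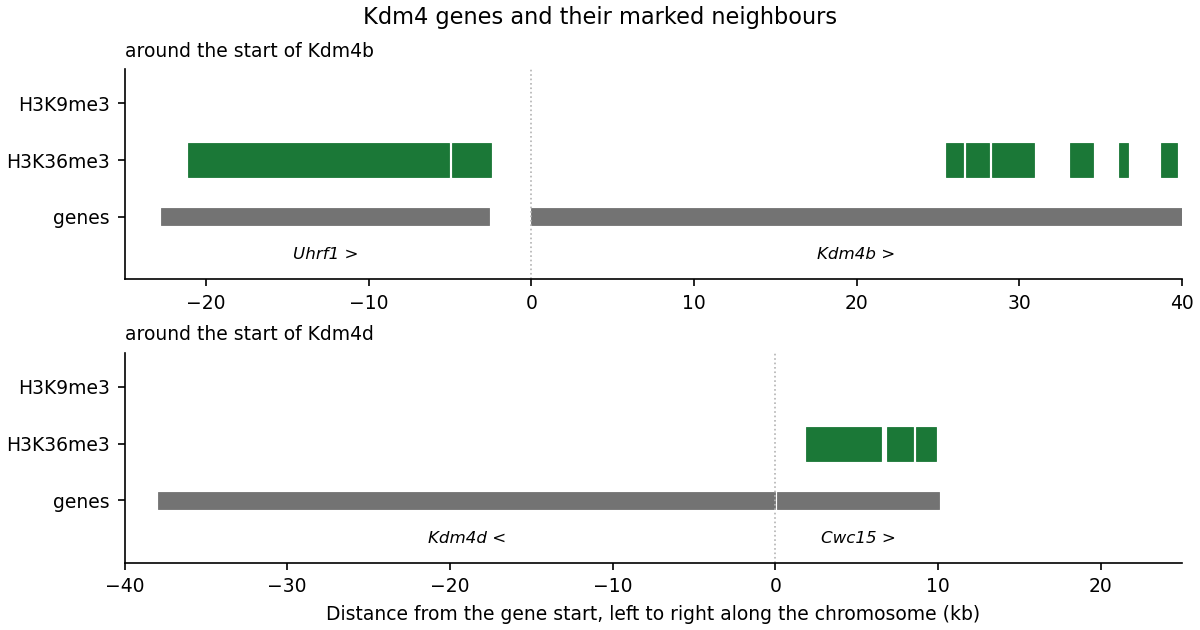
H3K36me3 regions (green) and H3K9me3 regions (red) with protein-coding genes (grey, arrowheads give the strand) around the starts of Kdm4b and Kdm4d, against the distance from the start in kb. Regions cover 90.8% of Uhrf1 and begin 25516 bp into Kdm4b, the sequence between the genes could not be listed, and H3K36me3 covers 74.3% of Cwc15 while Kdm4d is empty.

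No region of either list lay within 1 kb of the start of a Kdm4 gene (0 bp in all 4 genes). Few genes carried H3K36me3 in their first 1 kb, 1.89% of all and 0.39% of long protein-coding genes, and 18.5% and 27.6% carried H3K9me3 there, so the count of 0 of 4 sets these genes apart in neither mark. This changed for Kdm4b when the starts of all its coding transcripts were counted, since a short coding transcript begins inside the gene, and 1543 bp of H3K36me3 and 58 bp of H3K9me3 then lay near a start.

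Base composition and copied sequence were set beside these results. Kdm4a and Kdm4b had a G+C content of 49.9% and 53.7%, and Kdm4c and Kdm4d, with little or no listed sequence, had 38.2% and 40.4%. Within Kdm4a covered sequence had 50.7% G+C and uncovered sequence 47.3%, within Kdm4b 55.2% and 52.3%, and within Kdm4c 38.9% and 38.2%. As the aligner was set to a limit of 5 alignments per read, the share of stretches of 50 bases with more than 5 exact copies was also counted. It was 1.25% in Kdm4a, 0.987% in Kdm4b, 3.98% in Kdm4c and 5.19% in Kdm4d. In Kdm4a it was 0.336% of covered and 4.00% of uncovered sequence, and in Kdm4b 0.0267% and 1.90%. The part of base composition and of copies in these differences was not tested.

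The remaining histone lysine demethylases gave a wider frame for the Kdm4 genes. A list of 19 further genes was used, and all 19 were found in the annotation. H3K36me3 was present in 11 of 19 and H3K9me3 in 11 of 19, with 6 genes in both lists and 3 in neither. These counts stand beside the backgrounds given above for all and for long genes, 34% and 38.4% for H3K36me3, 40.2% and 69% for H3K9me3, and 12.1% and 22.6% for both lists, and were not tested. Ranked by the share covered by H3K36me3 among all 23 genes, Kdm4a had rank 1, Kdm4b rank 4 and Kdm4c rank 14, the last of those that carried the mark. The genes with the most H3K36me3 sequence among the 19 were Kdm5b (38600 bp, 53.1%) and Kdm5a (19600 bp, 24.4%), which act on lysine 4, and Kdm3a (26033 bp, 59.3%) and Kdm3b (25600 bp, 41.1%), which act on lower methyl states of lysine 9. Kdm2a, an H3K36 demethylase of lower methyl states, had 16000 bp (19.5%), and Kdm1a, the amine oxidase LSD1, had 15546 bp (29.8%).

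The total of H3K9me3 sequence was highest in Jmjd5 (2411 bp in 3 regions), Kdm2b (2400 bp in 3), Phf8 (2200 bp in 3) and 2410016O06Rik (1443 bp in 1, 61.5% of this gene of 2346 bp), followed by Kdm5a and Jhdm1d with 1200 bp each. Shared bases were found in 2 of the 19 genes, Kdm3b and Kdm5a, 600 bp in each, the same length as in Kdm4b. The backgrounds for shared bases were 7.14% of all and 13.3% of long protein-coding genes, and this count was not tested. H3K9me3 covered 1.60% of Kdm3b in 1 region, 1.49% of Kdm5a in 2 and 1.56% of Kdm4b in 2.

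**Figure D5:**
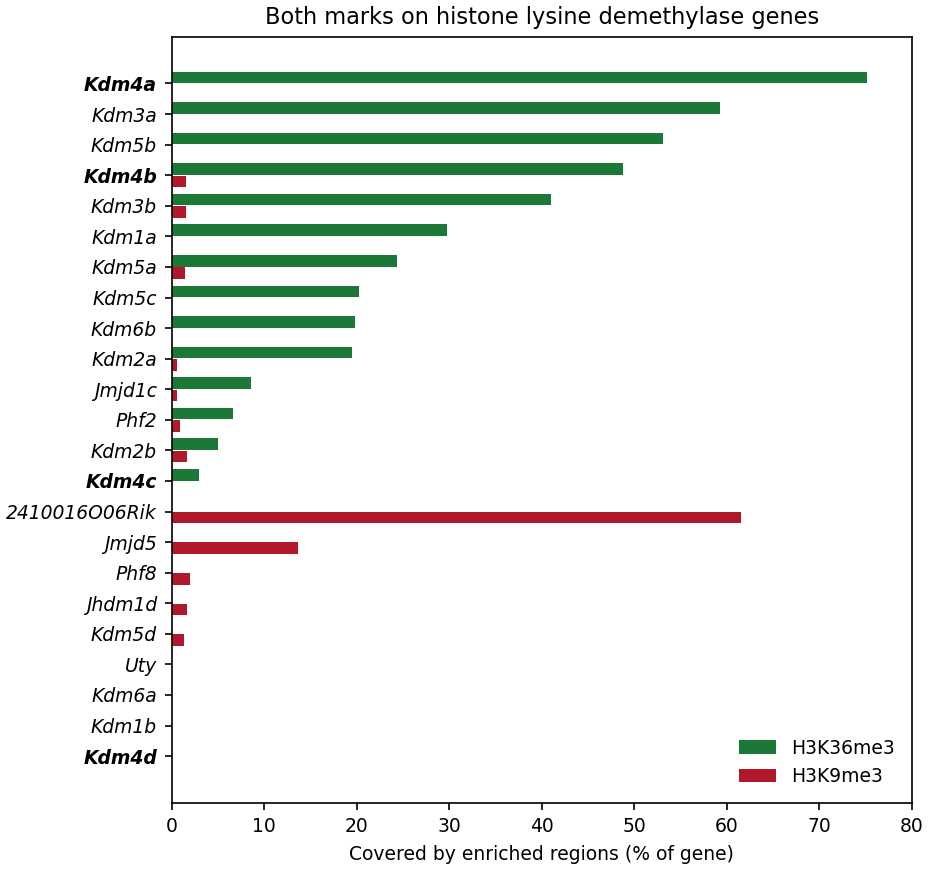
Share of each of 23 histone lysine demethylase genes covered by H3K36me3 regions (green) and H3K9me3 regions (red), in % of the gene, ordered by H3K36me3 with the Kdm4 genes in bold. Kdm4a is highest for H3K36me3 at 75.2%, Kdm4b lies between Kdm5b and Kdm3b, Kdm4c is the lowest gene with the mark, and Kdm4d is among those with 0% of both.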

How the data were processed

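ChIP-seq of H3K9me3 and H3K36me3 was analysed in WT and G34R ES cells (4 libraries, 1 per group). According to the methods and the submitters' processing notes, the authors aligned reads to mm9 with Bowtie (1.0.0), allowing up to 5 alignments, removed PCR duplicates and counted reads in 200 bp bins in SeqMonk. Bins in annotated genes above a high percentile in WT or G34R cells were joined with bedtools (2.20.1). The deposited lists hold 3 columns (chromosome, start, end). Regions were further removed by size and by extreme read counts. The methods state an upper size limit, whereas the narrowest listed region is 600 bp wide.

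Here, regions were intersected with GENCODE genes on NCBIM37, the assembly of mm9, counting overlap from 1 bp. Exact copies of 50-base stretches were counted on both strands. Python (3.11.15) with numpy (2.4.6) and numba (0.67.0) was used, and interval functions gave 0 differences in 1600 tests on simulated data. The named genes were the 4 Kdm4 genes, genes within 5 kb or sharing a region, and of the further demethylases up to 6 with the most sequence in each list. Frmd3 and Amotl1 are named as the places of the nearest regions, and Kdm1b, Kdm5c, Kdm5d, Kdm6a and Uty were named after their values were seen. Members and lists were chosen with earlier results of these data known. Alternatives were other flanks, a minimum width of 1000 bp, joining across gaps of 2 kb, reciprocal overlap of 50%, the longest coding transcript and other starts.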

Additional observations from a re-analysis of the deposited data

How the results depend on the processing

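The lists hold positions alone, and the limit set by depth is unknown. No paired analysis was possible because each group has 1 library and the lists pool WT and G34R cells. Of 76 values under alternatives 63 stayed within 1.5-fold (counts of regions) or within the 95% Wilson interval of the covered share over bins. Neighbouring bins are not independent, so this interval is only a yardstick for the size of a move and says nothing about stability. Of the 63, 39 were 0 and 24 were above 0. The 24 include a move from 0 to 58 bp given below.

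Joining regions across gaps of up to 2 kb gave 1 H3K36me3 region at Kdm4a with 39600 bp and 3 at Kdm4b, gaps included. Those at Kdm4b include a joined region over Uhrf1 that lies outside Kdm4b, and the others held 49093 bp inside the gene. A minimum width of 1 kb left 0 regions and 0 bp of H3K36me3 in Kdm4c and 0 regions, 0 bp and 0 shared bp of H3K9me3 in Kdm4b, since all of these were under 1 kb. Reciprocal overlap of 50% left 0 shared bp in Kdm4b, as the H3K36me3 region there is wider. Without flanks Kdm4d had 0 regions, and with flanks of 10 kb it had 3, all H3K36me3. With the starts of all coding transcripts, 1543 bp of H3K36me3 and 58 bp of H3K9me3 in Kdm4b lay within 1 kb of a start.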

Other observations

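Of the pairs of related demethylase genes on X and Y, Kdm5c and Kdm5d differed in the lists, and Kdm6a and Uty did not. Kdm5c on X carried 8400 bp of H3K36me3 (20.2% of the gene) and no H3K9me3, and its Y counterpart Kdm5d carried 600 bp of H3K9me3 (1.30%) and no H3K36me3. Kdm6a on X and Uty on Y were in neither list, as was Kdm1b on chromosome 13. These genes were chosen after their values were seen, and the differences were not tested.

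A snoRNA gene annotated within Kdm4a, SNORA70 (chromosome 4, 117836683 to 117836786, plus strand), lay wholly inside an H3K36me3 region (104 bp), whereas A230083N12Rik, a noncoding transcript within Kdm4c (chromosome 4, 73896228 to 73897618), carried 0 bp of either mark.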
